A study of Saccharomyces cerevisiae with 24 samples.

Results

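The small subunit ribosomal protein genes of Saccharomyces cerevisiae carry RPS symbols, and they were taken here as every gene whose platform symbol is RPS followed by a number and, for duplicated genes, the letter A or B. This rule found 52 of the 5449 yeast genes on the array, each represented by its probe set with the highest mean log2 signal. The reference gene table holds 56 such symbols. Of these, 4 were not analysed here, among them the pair copies RPS4A, RPS6A and RPS30B. The 52 genes comprise 21 complete A and B pairs, 7 genes without a copy (RPS2, RPS3, RPS12, RPS13, RPS15, RPS20 and RPS31) and RPS4B, RPS6B and RPS30A.

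The small subunit binds the messenger RNA and reads its codons. Its head, which holds proteins such as Rps3 and Rps20, swivels on a body and platform that hold proteins such as Rps9, Rps24 and Rps14. After an ancient genome duplication, yeast kept an A and a B gene for most of these proteins, and the copies encode nearly the same protein. Their promoters are driven by Rap1, Fhl1 and Ifh1, and ribosomal protein messenger RNAs are known to drop transiently under heat and other stress. Tod6 and Dot6, the factors deleted in this study, are related Myb-type repressors known to bind the PAC motif upstream of ribosome assembly genes.

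Expression was measured on 24 Affymetrix Yeast 2.0 arrays. The 4 strains were the wild type BY4741, a deletion of pbf1 (TOD6), a deletion of pbf2 (DOT6) and the double deletion. For each strain 3 cultures grown at 25 °C were split. Cells of 1 portion were collected at 0 min and cells of the other after 20 min at 37 °C, which gives 3 arrays in each of 8 groups. BY4741 is a haploid MATa laboratory strain with auxotrophic marker deletions. The labels do not give the construction of the deletion strains or the number of clones. The question is which heat shock changes depend on the deleted factors.

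Every value is an authors' MAS5 signal, a brightness on a linear scale set so that the arrays have a common average, so a fall is a fall relative to the rest of the messenger RNA. All 52 genes were above background on all 24 arrays, with signals from 365 to 19590. TOD6 was above background on 12 arrays and DOT6 on 13, where 12 arrays are of strains that carry each gene, and at 0 min the geometric mean of DOT6 was 855 for the wild type and 8.85 for the double deletion. The double deletion also differed in strain markers. Its geometric mean for URA3 was 1789 at 0 min, against 1.62 for the wild type, and the a-cell genes MFA1 and AGA2 were lower by log2 -1.54 and -2.35 at 0 min, while MFA2 (-0.26) and STE2 (-0.15) did not pass the test. At 20 min MFA2 (-0.96), STE2 (-0.94) and BAR1 (-1.07) were lower too. The response difference passed in opposite directions for STE2 (-0.79, limma adjusted p = 0.0417) and AGA2 (1.08, adjusted p = 0.0421). It did not pass for MFA1 (0.38), MFA2 (-0.69) or BAR1 (-0.62). The part of these differences in the results below was not tested.

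Some of the probe sets do not belong to a single copy. Affymetrix names ending in _s_at mark probe sets shared by several transcripts, and those ending in _x_at hold probes that may cross-hybridize. By the rule, 8 genes were represented by a shared probe set (among them RPS4B, RPS6B, RPS18B, RPS23A and RPS30A), so their values stand for both copies together, and 6 by a cross-hybridizing one (RPS10A, RPS10B, RPS16A, RPS26A, RPS29A and RPS29B). The other 38 had a probe set without such a mark. All 21 pairs also had an unmarked probe set for each copy, called unshared below, and results on copies are given with these as well. That alternative was chosen after seeing the data.

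Heat shock lowered the whole set. In the wild type all 52 genes fell, with adjusted p from limma under 0.05 over 5395 tested genes, of which 29.7% were lower by the same test. The median change over the RPS genes was log2 -1.83, against 0.27 over all tested genes. A fall of 2-fold or more was called for 47 of the 52 (12.9% of all tested genes). The largest falls were those of RPS26B (YER131W, log2 -3.83 ± 0.21 (SE)), whose protein lines the mRNA exit channel, RPS0B (YLR048W, -3.72 ± 0.28) and RPS0A (YGR214W, -3.43 ± 0.09). RPS1A (-3.13) and RPS16B (-2.97) were also among the 6 largest. In every strain and culture the median of the RPS genes was below 0.

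RPS26B had wild type signals of 8944, 8856 and 8780 at 0 min and 857, 622 and 455 at 20 min in cultures 1, 2 and 3. RPS0B gave 13610, 12037 and 13828 at 0 min and 1756, 896 and 629 at 20 min. For both genes the 0 min arrays lay close together, while the 20 min arrays spread more widely. Over the RPS genes the median SD of the wild type log2 signals was 0.0474 at 0 min and 0.201 at 20 min, against 0.0922 and 0.124 over all tested genes.

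At the other end of the range, RPS20 (YHL015W), a head protein gene, and RPS12 (YOR369C), a gene of the beak of the head, fell least apart from RPS9A. RPS20 had wild type signals of 13180, 13804 and 13359 at 0 min and 6575, 7518 and 7901 at 20 min, a change of log2 -0.88 ± 0.07. RPS12 changed by -0.73 ± 0.07. RPS23A (-0.93), RPS30A (-0.99) and RPS24A (-1.14) completed the 6 smallest falls, and the values of RPS23A and RPS30A come from shared probe sets.

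RPS9A (YPL081W), a copy of the gene for Rps9 at the mRNA entry side, stood apart from the other members. Its wild type signals were 2655, 2568 and 2554 at 0 min and 2371, 1985 and 1221 at 20 min, and its pbf2 deletion signals were 2609, 2619 and 2634 at 0 min and 2674, 2413 and 2257 at 20 min. The pbf2 deletion arrays of the 2 times overlapped. Its change was log2 -0.53 ± 0.24 in the wild type (limma adjusted p = 0.0431) and -0.61 ± 0.24 in the double deletion (adjusted p = 0.0221). It did not pass in the pbf1 deletion (-0.41, adjusted p = 0.117) or the pbf2 deletion (-0.10, adjusted p = 0.698). The wild type call rests on culture 3: without its 20 min array the change was -0.26 (adjusted p = 0.313), and without the 20 min array of culture 3 the double deletion gave -0.27 (adjusted p = 0.241).

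The RPS genes also fell in the other strains. Falls were called for 51 of 52 genes with the pbf1 deletion (30.4% of all tested genes), for 51 with the pbf2 deletion (30.1%) and for 52 with the double deletion (30.9%), and no RPS gene rose in any strain, while 51%, 51.2%, 48.4% and 48.5% of all tested genes rose in the 4 strains, in the order wild type, pbf1, pbf2 and double deletion. The medians were log2 -1.77 for the pbf1, -1.37 for the pbf2 and -1.63 for the double deletion. For 51 of the 52 genes every 20 min array of every strain lay below every 0 min array, which held for 18.9% of all tested genes, and RPS9A was the exception. RPS26B and RPS0B had the 2 largest falls in each strain, at -3.80 and -3.69 for the pbf1, -2.88 and -2.82 for the pbf2 and -4.02 and -4.03 for the double deletion. RPS12 and RPS20 were among the 4 smallest in each strain, with RPS20 at -0.39 in the double deletion.

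**Figure D1:**
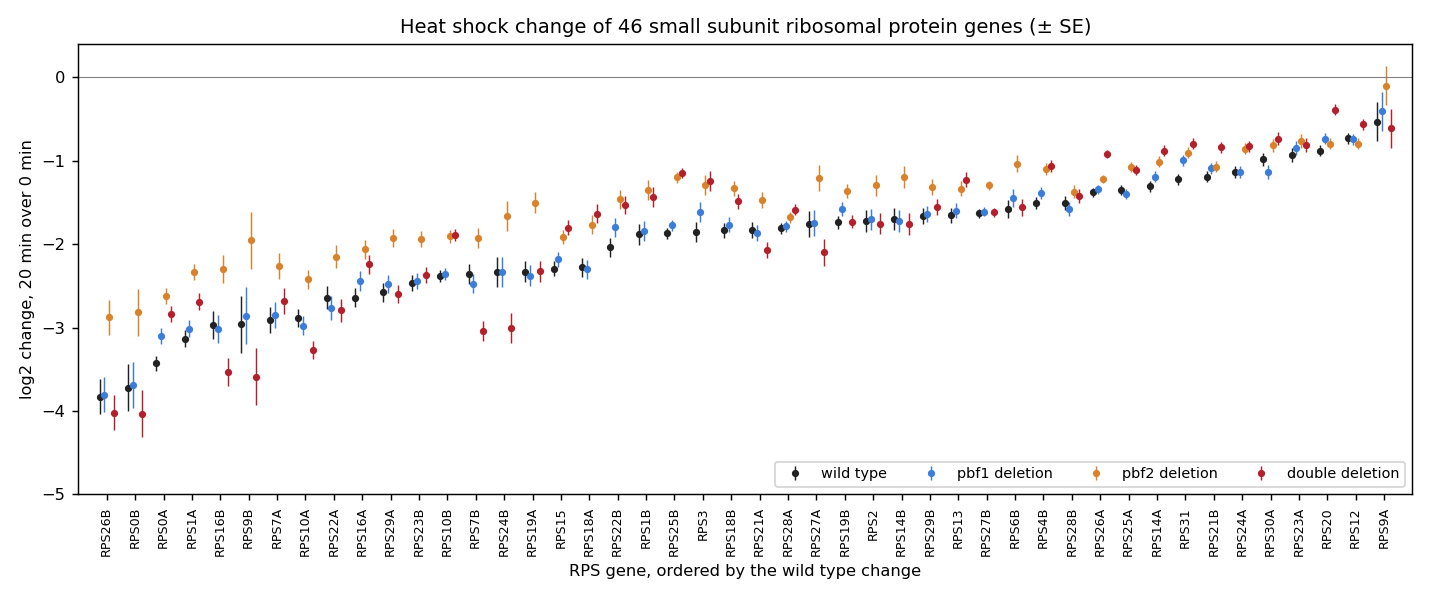
The log2 change from 0 to 20 min (y axis) of 46 of the 52 RPS genes (x axis, ordered by the wild type change) in the 4 strains, with the limma standard error as bars. All wild type values drawn lie below 0, from -3.83 for RPS26B to -0.53 for RPS9A, and the pbf2 deletion points lie above the wild type points for all genes drawn except RPS12.

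Over the 52 genes as a whole, no linear relation was seen between the size of the fall and the brightness before heat. Across the 52 genes the wild type log2 signal at 0 min and the heat shock change had a Pearson r of 0.04, a description over genes that share arrays. RPS9A had both the lowest wild type signal at 0 min (geometric mean 2592) and the smallest fall, and r without it is not given. Genes of the head (21) had a median wild type change of log2 -1.86, and genes of the body and platform (31) one of -1.76. The 7 genes without a copy had a median of -1.66, from -2.30 for RPS15 through -1.86 for RPS3, -1.72 for RPS2, -1.66 for RPS13 and -1.22 for RPS31 to the values of RPS20 and RPS12 above, the 22 A copies -1.87 and the 23 B copies -1.87. All members of each of these groups fell in the wild type. The 70 large subunit (RPL) genes had a median of -2.01, with 69 lower and 1 higher (29.7% and 51% of all tested genes).

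Genes that act on the small subunit were taken as a list of 14 assembly factors and binding partners. In the wild type 11 of them fell and 1 rose (29.7% and 51% of all tested genes), with a median of log2 -1.36. LTV1, whose protein escorts the nascent 40S subunit and binds Rps3 and Rps20, changed by -3.23, and TSR2, the chaperone of Rps26, by -1.68. ASC1, the gene of a scaffold protein on the head of the subunit, changed by -1.17. Among the regulators of ribosomal protein genes, FHL1 fell by 0.73 on the log2 scale, and SFP1, an activator, rose by 0.43. CRF1, known as a corepressor at Fhl1, rose by 1.54 from signals near background (geometric means of 7.17 and 20.9). RAP1 (-0.10, adjusted p = 0.574 by limma) and IFH1 (-0.04, adjusted p = 0.739) did not pass.

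Before heat, the strains were close. At 0 min no RPS gene of the pbf1 deletion differed from the wild type by limma at an adjusted p of 0.05 (0.0371% of all tested genes were higher and 0.0741% lower). The same held for the pbf2 deletion (0.204% and 0.0371%) and for the double deletion (8.47% and 16%). At an unadjusted p of 0.05 the counts were 1, 4 and 1 gene, against 7.67%, 5.78% and 36.3% of all tested genes. The medians over the RPS genes were log2 0.01, -0.10 and -0.03. In each direction the values with the smallest p were, in the pbf1 deletion, those of RPS22B (0.29 ± 0.11), RPS10A (0.14), RPS18B (-0.05) and RPS20 (-0.04). In the pbf2 deletion they included those of RPS14A (-0.16 ± 0.06), RPS26A (-0.12) and RPS10A (0.01). In the double deletion they were those of RPS22B (0.25 ± 0.11, limma adjusted p = 0.114), RPS0A (0.11), RPS30A (-0.14, adjusted p = 0.218) and RPS20 (-0.09). In the pbf2 deletion 18 genes had all 3 arrays below the wild type at 0 min (6.06% of all tested genes) and none had all 3 above it (7.93%). The counts above and below the wild type were 3 and 0 for the pbf1 deletion (5.71% and 11.3%) and 3 and 2 for the double deletion (15.7% and 23.7%).

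Deletion of pbf1 left the heat shock change of these genes without a detected difference. No RPS gene and no other gene passed the test of the response difference to the wild type (0% of tested genes by limma), 2 RPS genes had an unadjusted p under 0.05 (3.39% of all tested genes), and the median difference was log2 0.04. RPS0A (0.33 ± 0.13) and RPS31 (0.23 ± 0.10), whose product is made as a fusion to ubiquitin, had the smallest p among those above 0. RPS30A (-0.15) and RPS7B (-0.12) had the smallest p among those below it. At 20 min RPS0A (0.43 ± 0.09, limma adjusted p = 0.0390) and RPS22B (0.53 ± 0.11, adjusted p = 0.0325) were above the wild type in the pbf1 deletion, against 0.278% of all tested genes, and none was below it (0.352%). All 3 arrays lay above the wild type for 4 genes and below it for none (4.32% and 9.21%). Leaving out the wild type 20 min array of culture 3, or the pbf1 deletion 20 min array of culture 1 or of culture 2, left neither of these calls.

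In the pbf2 deletion the fall was smaller. The median change per culture was log2 -1.30, -1.41 and -1.42 in the pbf2 deletion and -1.63, -1.82 and -1.98 in the wild type, so the cultures of the 2 strains did not overlap. By limma, the response of 9 RPS genes was above the wild type's and that of none was below (1.5% of all tested genes were above and 0.204% below), and 51 of 52 differences were above 0, with a median of 0.45. The 9 genes were RPS0A, RPS1A, RPS4B, RPS10B, RPS18B, RPS19A, RPS25B, RPS27B and RPS29A. With the culture as a block, 4 were above and none below (1.43% and 0.13% of all tested genes). With the replicate number as a block across strains, 39 were above and none below (7.21% and 2.54%). The count was sensitive to single arrays. It was 30 without the wild type 20 min array of culture 1, and 3 without the wild type 0 or 20 min array of culture 3 or without the pbf2 deletion arrays of culture 1 at 0 or 20 min, of culture 2 at 20 min or of culture 3 at 0 min. It was 4 or 5 without the wild type arrays of culture 1 at 0 min or of culture 2 at either time, or without the culture 2 arrays of the pbf1 deletion or of the double deletion at either time. It was 0 when arrays were centred on the hybridization controls or on the spike-in controls, where the median difference was 0.47 and 0.63.

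RPS25B (YLR333C), the gene of a head protein known for its role in initiation on viral internal ribosome entry sites, had wild type signals of 2314, 2032 and 1992 at 20 min. In the pbf2 deletion these were 3034, 3136 and 3038, all above the wild type. The response difference was log2 0.67 ± 0.09 (limma adjusted p = 0.000660). RPS0A differed by 0.81 ± 0.13 (adjusted p = 0.00345), RPS1A by 0.80 ± 0.14 (adjusted p = 0.00494) and RPS19A by 0.82 ± 0.18 (adjusted p = 0.0225). RPS29A (0.65) and RPS18B (0.50, a shared probe set, adjusted p = 0.0497) lost the call when any of several arrays was left out. Both also lost it with the culture as a block (adjusted p = 0.063 and 0.101).

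At 20 min itself, 29 RPS genes had more signal in the pbf2 deletion than the wild type and none had less, against 8.64% and 4.62% of all tested genes. Among them were RPS26B (log2 0.89 ± 0.21), RPS0A (0.77 ± 0.09), RPS19A (0.68 ± 0.13), RPS1A (0.66 ± 0.10) and RPS24B (0.63 ± 0.18). For 28 genes all 3 pbf2 deletion arrays lay above all wild type arrays and for 1 gene below them (15.8% and 15.8% of all tested genes). B copies (17 of 23) and A copies (10 of 22) were both among those called. The count was 10 without the wild type 20 min array of culture 3, 14 without the pbf2 deletion 20 min array of culture 1 and 17 without the wild type 20 min array of culture 2. It was 40 with the replicate number as a block, where the share of all tested genes is not given. With spike-in centring it was 0, with a median difference over the RPS genes of 0.50 against 0.37 in the data as deposited.

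The double deletion had a mixed pattern. Its median change per culture was log2 -1.47, -1.67 and -1.78, which overlapped the wild type cultures. By limma the response of 22 RPS genes lay above the wild type's and that of 1 below it, while 15% of all tested genes were higher and 12.8% lower, and the median difference over the RPS genes was 0.23. The largest were those of RPS25B (0.72 ± 0.09), RPS18A (0.64 ± 0.16), RPS3 (0.61 ± 0.17), RPS0A (0.59 ± 0.13), RPS22B (0.51 ± 0.16) and RPS15 (0.50 ± 0.13). Of the head genes 10 of 21 were higher and none lower, of the body and platform genes 12 of 31 were higher and 1 lower, and of the 7 genes without a copy 5 were higher. With the arrays centred on their medians 11 were higher and 4 lower, with the hybridization controls 4 and 1, and with the spike-in controls none. The median difference was 0.14, 0.20 and 0.10 in these fits. All these counts use the probe sets of the rule. By its shared set RPS18B changed by log2 -1.84 in the wild type and -1.49 in the double deletion. By its own set it changed by -3.33 and -3.89, so the direction of its response difference turned.

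By the probe sets of the rule, RPS7B (YNL096C), a copy of a body protein gene, was the single member with a lower response. It had 20 min signals of 1216, 1077 and 884 in the double deletion and of 2049, 1683 and 1313 in the wild type, with no overlap. At 0 min the double deletion gave 8531, 8525 and 8871 and the wild type 8774, 8188 and 8484. The response difference was log2 -0.68 ± 0.17 (limma adjusted p = 0.00377). The count of genes with a lower response was 5 without the wild type 20 min array of culture 3 and 4 without the double deletion 20 min array of culture 1. It was 2 without the pbf1 deletion 20 min array of culture 1 or of culture 3, or without the double deletion 0 min array of culture 3. It was 8 with the replicate number as a block, where the share of all tested genes is not given.

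At 20 min, 26 RPS genes lay above the wild type in the double deletion and 5 lay below it. The shares of all tested genes were 20.9% and 32.4%. These RPS counts use the probe sets of the rule, and shared sets do not tell copies apart. By its shared set RPS18B had 20 min geometric means of 3796 in the wild type and 4639 in the double deletion. Its own set gave 1255 and 844, the opposite direction. The arrays did not overlap for 25 genes above and 1 below (21.4% and 34.5%). The highest were RPS22B (log2 0.76 ± 0.11), RPS25B (0.73 ± 0.06), RPS0A (0.70 ± 0.09), RPS18A (0.60 ± 0.12), RPS1B (0.59 ± 0.13) and RPS3 (0.55 ± 0.12). Among the 5 lower ones were RPS7B (-0.66 ± 0.12), RPS24B (-0.61 ± 0.18), RPS16B (-0.59 ± 0.17) and RPS21A (-0.27 ± 0.10). RPS7B was the single gene that stayed lower without the wild type 20 min array of culture 1 or without the double deletion 20 min array of culture 3. The count was 8 without the wild type 20 min array of culture 3 and 9 without the double deletion 20 min array of culture 1. With spike-in centring none was called in either direction, and the median difference over the RPS genes was 0.41 against 0.17 in the data as deposited.

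Compared with the pbf2 deletion, the double deletion had a lower response in 18 RPS genes and a higher one in 2 (9.53% and 11.2% of all tested genes), with a median difference of log2 -0.17. Among the 6 largest were those of RPS9B (-1.64 ± 0.49), RPS24B (-1.34 ± 0.25), RPS16B (-1.24 ± 0.24), RPS0B (-1.21 ± 0.40) and RPS26B (-1.15 ± 0.29). RPS20 (0.41 ± 0.10) and RPS26A (0.30 ± 0.07) were the 2 higher ones. Of the 23 B copies 11 were lower, of the 22 A copies 7, and of the 7 genes without a copy none. Without the double deletion 0 min array of culture 3 there were 4 higher ones. RPS9B lost its call without the double deletion 20 min array of culture 3 (-1.18, limma adjusted p = 0.065). The comparisons of the double deletion share their arrays with each other and, through the wild type or the pbf2 deletion, with those above.

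RPS9B (YBR189W) shows how the values lay. It had 20 min signals of 3945, 3634 and 2975 in the pbf2 deletion, 3180.5, 1770 and 1081 in the wild type, and 2167, 1319 and 659.6 in the double deletion. The pbf2 deletion arrays were all above those of the double deletion. The arrays of the wild type overlapped with each of the 2 deletions, and its response difference to the double deletion did not pass (-0.63 ± 0.49, limma adjusted p = 0.364). That difference passed with the replicate number as a block (limma adjusted p = 0.0251).

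The A and B copies of a pair were compared through the log2 ratio of the A to the B signal on each array. The brightness of 2 probe sets cannot be compared, but a change of their ratio can, and the scaling of an array cancels in it. P-values were adjusted over all 56 A and B pairs of the table. Over the 4 strains all 21 RPS pairs changed their ratio on heat shock by limma, 9 with the A copy falling less and 12 with the B copy falling less, and 94.6% of all 56 pairs passed. In an exact sign-flip permutation test over the 12 cultures, two-sided and adjusted over the 56 pairs, 19 of the 21 passed. RPS7 (adjusted p = 0.0867) and RPS27 (adjusted p = 0.0558) did not, and the smallest p that test can give is 0.000488. In both pairs the order of the copies was not the same in all strains.

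The largest difference was in RPS9, where RPS9A fell least of all members and RPS9B fell by 2.96 on the log2 scale in the wild type: the A minus B response was log2 2.43 ± 0.08. In RPS26 the wild type change was -1.38 for RPS26A and -3.83 for RPS26B, an A minus B response over the strains of 2.42 ± 0.11. RPS26A gave 4701, 4433 and 4502 in the wild type at 20 min, after 11797, 11104 and 12603 at 0 min. RPS23 (1.46 ± 0.04, with a shared probe set for the A copy), RPS24 (1.34 ± 0.09) and RPS1 (-1.17 ± 0.07) were also among the 6 largest. The smallest differences that passed were those of RPS27 (-0.16 ± 0.07), RPS7 (-0.22 ± 0.05) and RPS28 (-0.24 ± 0.04). For RPS27 and RPS7 these are averages over strains with different orders of the copies. RPS7A and RPS7B changed by -2.91 and -2.36 in the wild type and by -2.68 and -3.04 in the double deletion. RPS27A and RPS27B changed by -1.21 and -1.30 in the pbf2 deletion and by -2.10 and -1.62 in the double deletion.

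The choice of probe set mattered for this comparison. With unshared probe sets for both copies, all 21 pairs again passed (94.6% of all 56 pairs), but the order of the copies turned in 3. Among them, RPS18 went from -0.39 to 1.24 (A minus B response over the 4 strains). In these 3 pairs the brightest probe set named for 1 copy is a shared one. RPS23 also had a shared probe set for 1 copy, and there the unshared sets gave 0.62 ± 0.04.

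Of 10 shared probe sets, 7 belong to pairs whose copies also have their own, and 6 of these 7 fell less in the wild type than both own probe sets did. For RPS23 the shared probe set changed by log2 -0.93 ± 0.13 (SD, n = 3), while the own set of RPS23A changed by -1.84 ± 0.17 and that of RPS23B by -2.46 ± 0.25. For RPS19 the shared set changed by -1.29 ± 0.22, against -2.33 ± 0.35 for RPS19A and -1.74 ± 0.16 for RPS19B. For RPS18 these values were -1.84 ± 0.20, -2.28 ± 0.23 and -3.33 ± 0.47. The exception was RPS24, where the shared set (-1.84 ± 0.19) lay between RPS24A and RPS24B. Whether probe saturation or cross-hybridization moves with these differences was not tested.

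**Figure D2:**
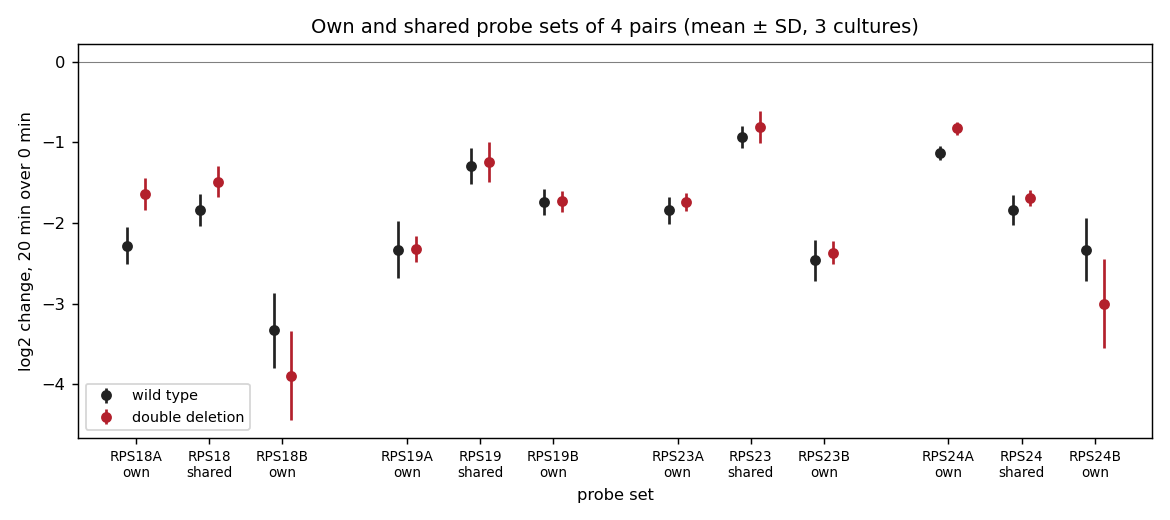
The log2 change from 0 to 20 min (y axis; mean ± SD of 3 cultures) of the own and shared probe sets of 4 pairs (x axis) for wild type and double deletion arrays. In RPS18, RPS19 and RPS23 the wild type point of the shared probe set lies above those of both own sets, for example -0.93 against -1.84 and -2.46 for RPS23, and in RPS24 it lies between them.

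Within single strains, unshared probe sets gave a ratio change in 19 of the 21 pairs of the wild type, 20 of the pbf1, 13 of the pbf2 and 19 of the double deletion. Of all 56 pairs, 82.1%, 82.1%, 60.7% and 80.4% passed with unshared sets. With the probe sets of the rule the RPS counts were 19, 20, 15 and 19, against 89.3%, 85.7%, 67.9% and 82.1% of all 56 pairs. The median size of the A minus B response with unshared sets was log2 0.62 for wild type arrays, 0.78 for the pbf1, 0.40 for the pbf2 and 1.12 for the double deletion. Over all 56 pairs it was 0.59, 0.70, 0.42 and 0.86. These medians are descriptions over pairs measured on the same arrays.

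The balance between copies was also compared between the double deletion and the wild type. Before heat, no RPS pair had a ratio different from the wild type (0 of 21; 3.57% of all 56 pairs; limma). For the response, 12 of 21 pairs had an A minus B difference between the double deletion and the wild type, 6 in each direction, with 50% of all pairs called. Among these pairs were RPS0, RPS7, RPS10, RPS14, RPS16, RPS18, RPS21, RPS22, RPS24 and RPS25. The count is thus to be read against a like share of all pairs. With unshared probe sets 14 passed (57.1% of all pairs), with RPS9 among those added. Leaving out single arrays gave 8 to 15. At 20 min 15 pairs differed from the wild type in their ratio (57.1% of all pairs).

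The largest differences by the rule were those of RPS24 (log2 0.98 ± 0.26, limma adjusted p = 0.00528), RPS16 (0.96 ± 0.18, adjusted p = 0.000255) and RPS7 (0.91 ± 0.15, adjusted p = 7.61e-05). RPS0 (0.90 ± 0.35, limma adjusted p = 0.0354) and RPS10 (-0.87 ± 0.17, adjusted p = 0.000530) followed. RPS0 lost its call with the culture as a block (adjusted p = 0.054) and when either the wild type 20 min array of culture 1 (0.59, adjusted p = 0.117) or the double deletion 20 min array of culture 3 (0.62, adjusted p = 0.126) was left out. With unshared probe sets RPS18 (1.20 ± 0.21) and RPS24 (0.98 ± 0.26) were among the largest.

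**Figure D3:**
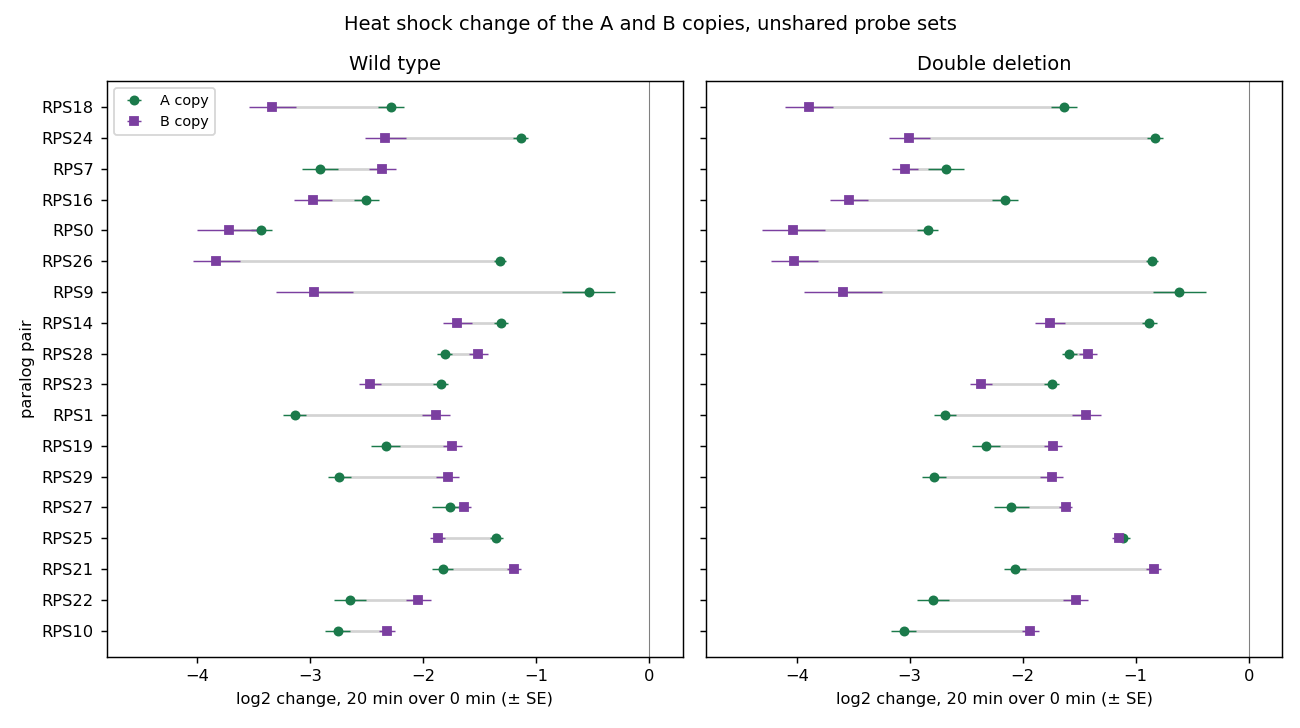
The log2 change from 0 to 20 min (x axis, ± limma SE) of the A copy (circles) and the B copy (squares) of 18 of the 21 RPS pairs (y axis, ordered by the A minus B response difference of the double deletion and the wild type) by unshared probe sets. The median distance between copies over all 21 pairs is 0.62 (left, wild type) and 1.12 (right, double deletion).

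In RPS24, the gene pair of a body protein, the A copy (YER074W) gave 5189, 4918 and 5031 in the wild type at 20 min and 5651, 6116 and 5934 in the double deletion. The B copy (YIL069C) gave 2692, 2099 and 1525 in the wild type and 1873, 1302 and 1001 in the double deletion. The double deletion was thus above the wild type on all arrays for RPS24A, and its arrays overlapped those of the wild type for RPS24B. The response difference was log2 0.31 for RPS24A (limma adjusted p = 0.0213) and -0.67 for RPS24B (adjusted p = 0.0552). Both passed with the replicate number as a block (limma adjusted p = 0.0069 and 0.0011).

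RPS16 encodes a head protein whose tail reaches the P site. RPS16B (YDL083C) gave 2157, 1708 and 1280.2 in the wild type at 20 min and 1508, 1121 and 826 in the double deletion, and RPS16A (YMR143W) gave 2223, 1575 and 1596 in the wild type and 2519, 2129 and 2086 in the double deletion. The arrays of the 2 strains overlapped for both copies, and neither copy passed for the response difference (0.40 and -0.56 for A and B, limma adjusted p = 0.0745 and 0.0859), while their ratio did. Both copies passed with the replicate number as a block (limma adjusted p = 0.0162 and 0.00279).

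In RPS7 the order of the copies turned: the wild type change was log2 -2.91 for RPS7A (YOR096W) and -2.36 for RPS7B, and in the double deletion it was -2.68 and -3.04. By culture, RPS7B changed by -2.10, -2.28 and -2.69 in the wild type, -1.89, -1.93 and -1.96 in the pbf2 deletion and -2.81, -2.98 and -3.33 in the double deletion. Each culture of the double deletion was below each of the other strains shown. RPS7A changed by -2.42, -3.03 and -3.28 in the wild type and -2.42, -2.71 and -2.91 in the double deletion, which overlapped.

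**Figure D4:**
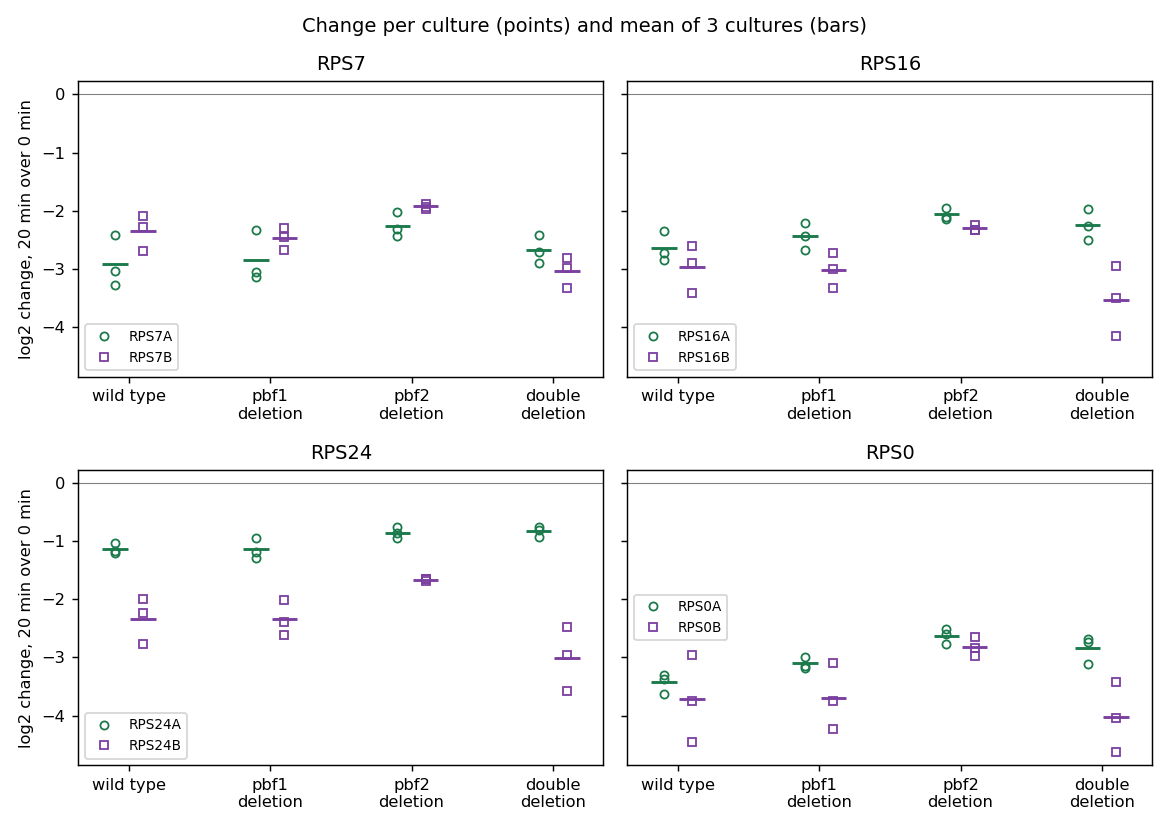
The log2 change from 0 to 20 min (y axis) of both copies of RPS7, RPS16, RPS24 and RPS0 in each culture (points) and its mean over 3 cultures (bars) in the 4 strains (x axis), by the probe sets of the rule. RPS7B lies between -2.10 and -2.69 in the wild type and between -2.81 and -3.33 in the double deletion.

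Over the 14 pairs called with unshared probe sets, the copies lay further apart in the double deletion, with the same copy falling more, in 10 (among them RPS0, RPS9, RPS10, RPS14, RPS16, RPS18, RPS21, RPS22 and RPS24). The distance was narrower in 3, among them RPS25, and in RPS7 the order turned. Over all 21 pairs it was wider by more than log2 0.01 in 13 and within 0.01 of the wild type's in 3. The copies' response differences to the wild type had opposite signs in 14 of the 21 pairs, exactly 1 copy responded higher in 11, both in 2 and neither in 8. These counts describe the pairs and carry no test. The 14 pairs were picked because their A minus B response differed between the double deletion and the wild type. Shares of all A and B pairs are not given for these counts. They are thus not read as particular to the RPS genes.

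In RPS25 the copies drew together. RPS25A changed by log2 -1.35 in the wild type and -1.11 in the double deletion, and RPS25B by -1.87 and -1.15. The A minus B difference was -0.48 ± 0.09 with unshared sets (limma adjusted p = 0.000232). RPS25 also changed in the pbf2 deletion, where 2 RPS pairs passed, RPS25 and RPS23 (7.14% of all 56 pairs). With unshared sets 2 passed (8.93% of all 56 pairs), with RPS25 among them. RPS1, RPS19 and RPS23 had the A minus B differences nearest to 0, at -0.0011 ± 0.19, -0.0019 ± 0.17 and 0.000689 ± 0.12 with unshared sets. That none of these passed does not show that the copies respond alike.

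The genes whose profile over the 8 group means was most like the median of the RPS genes were RPL29, RPL6B, RPL23A, APT1 and RPL18B, each with a Pearson r above 0.999, a measure set mainly by the difference between 0 and 20 min. Of these, 4 encode large subunit proteins and APT1 encodes adenine phosphoribosyltransferase. The RPL genes had 15 of 70 with a higher response in the pbf2 deletion and none lower, and 22 higher and 3 lower in the double deletion. Of all tested genes, 1.5% were higher and 0.204% lower in the pbf2 deletion, and 15% and 12.8% in the double deletion. Of the 14 assembly factors and partners, none passed in the pbf2 deletion, a count near these shares. In the double deletion 9 had a higher and 1 a lower response, with LTV1 at log2 2.53. IFH1 also had a higher response there (0.62, limma adjusted p = 0.00915).

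In the authors' deposited table of ratios, made by another method from the same arrays, all 52 genes had a wild type log2 ratio below 0, and 50 had a false discovery rate of at most 0.0001. Medians over the RPS genes in the authors' deposited table were -1.55 for the wild type, -1.56 and -1.09 for the pbf1 and pbf2 deletions and -1.35 for the double deletion. The authors' deposited table put the pbf2 deletion above the wild type for all 52 genes and the double deletion above it for 37. Shares over all genes of that table are not given here, so these counts are not read as particular to the RPS genes.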

How the data were processed

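Each deposited value is the intensity of 1 probe set on 1 array. MAS5 was used by the authors, according to the submitters' processing notes, with no version given, and GeneChip Operating Software 1.4 is named for the images. On each array the mean of the probe sets after trimming 2% at each end lay between 499.7 and 499.8. The authors' deposited table holds log2 ratios and, as a p-value, the false discovery rate, per the file headers. Its 3 rate columns of the deletions share a name and were not used. No genome build was used, and no sequences or coordinates are given.

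Signals were put on the log2 scale with no pseudocount. The test took the 5395 genes with a mean log2 signal over 2.35, the 90th percentile of probe sets for genes outside S. cerevisiae. A signal above the 95th percentile of those probe sets on an array (9.02 to 11.6) counted as above background. All 24 arrays were fitted as 8 group means with limma 3.58.1 in R 4.3.3 (eBayes with a variance trend and 16 residual degrees of freedom). Two-sided p-values were adjusted after Benjamini-Hochberg over all genes or all 56 pairs of a comparison, at a threshold of 0.05. In pairs, the log2 A to B ratio was fitted in the same way. Errors are limma standard errors unless named SD. Arrays give no counts, so their number limits the precision. The other steps used scipy 1.17.1, numpy 2.4.6, matplotlib 3.10.9 and pandas 2.3.3 in Python 3.11.15.

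Members, gene lists and tests were chosen with earlier results of these data known. Genes were named by size: the 6 largest and 6 smallest falls of the wild type, 4 and 4 in other strains, the 6 largest differences in each direction among those past the threshold (where none passed, the 2 with the smallest p in each direction), genes without a copy, the 6 largest and 3 smallest pair differences, the deleted genes, regulators and partners, and the 5 genes of most similar profile. Some items that the rule names are not reported here, though counts and medians over the set include them. Any other gene given with values was chosen after its values were seen. The sample titles give a replicate number at each time. The 2 arrays of a strain with the same number were taken as the 2 parts of 1 culture. The culture block, the changes per culture and the sign-flip test rest on this reading. Same-culture deviations correlated between -0.0408 and 0.186. Tested on simulated data for the wild type heat shock with 5395 genes, the fit recovered most of the known changes. Recovery was a condition for going on, so this was only a check of the fit. The simulated noise was independent between arrays, and few genes were changed, unlike in the data. Response differences between strains were not simulated, so the run does not bear on them. Alternatives were other scalings, probe set choices, filters, blocks and leaving out single arrays.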

Additional observations from a re-analysis of the deposited data

Results flagged for a closer look

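The response to heat differed between strains by limma's interaction contrast for 6 named genes of the pbf2 deletion against the wild type, at log2 0.50 for RPS18B, 0.65 for RPS29A, 0.67 for RPS25B, 0.80 for RPS1A, 0.81 for RPS0A and 0.82 for RPS19A. For the double deletion against the wild type it differed for RPS7B (-0.68), RPS15 (0.50), RPS22B (0.51), RPS0A (0.59), RPS3 (0.61), RPS18A (0.64) and RPS25B (0.72). For the double deletion against the pbf2 deletion it differed for RPS9B (-1.64), RPS24B (-1.34), RPS16B (-1.24), RPS0B (-1.21), RPS26B (-1.15), RPS26A (0.30) and RPS20 (0.41).

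The A minus B response differed between the double deletion and the wild type for RPS24 (0.98), RPS16 (0.96), RPS7 (0.91), RPS0 (0.90) and RPS10 (-0.87). The groups hold 3 arrays each, so no array was tested for lying apart from its group.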

How the results depend on the processing

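The heat shock fall kept its direction in every strain under all alternatives run, with 51 or 52 genes lower when single arrays were left out. Counts of response differences moved. Higher responses in the pbf2 deletion numbered 4 with median centring, 0 with hybridization control or spike-in centring, 5 without the variance trend, 4 with the culture as a replicate block and 3 to 30 without single arrays. In the double deletion, lower responses numbered 2 with quantile normalization, 4 with median centring, 0 with spike-in centring and 1 to 5 without single arrays; higher ones 11, 4 and 0 with median, hybridization and spike-in centring. Against the pbf2 deletion, lower ones numbered 10 and 1 with hybridization and spike-in centring; higher ones 1, 1 and 0 with median, hybridization and spike-in centring and 2 to 4 without single arrays. At 20 min, higher genes in the pbf1 deletion numbered 0 with hybridization or spike-in centring, 1 without the trend and 0 to 2 without single arrays. In the pbf2 deletion they numbered 19 and 0 with hybridization and spike-in centring and 10 to 39 without single arrays. In the double deletion, lower genes numbered 8, 3 and 0 with median, hybridization and spike-in centring and 1 to 9 without single arrays, and higher ones 0 with spike-in centring. The cause was not tested. The median wild type change of all genes moved from 0.27 to 0.09, -0.00438 and -0.59 with median, hybridization and spike-in centring, and that of the RPS genes to -2.01, -2.10 and -2.68.

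Same-numbered arrays of different strains correlated in their deviations between 0.0314 and 0.646 at 20 min and -0.103 and 0.273 at 0 min. All 3 correlations were over 0.1 in 4 of the 6 strain pairs at 20 min (the wild type with either single deletion among them) and in 1 at 0 min, and the labels do not say what a number shared between strains marks. A fit with that number as a replicate block within each time, added after seeing the data, gave 39 higher responses in the pbf2 deletion, 8 lower ones in the double deletion, 4 higher ones against the pbf2 deletion, 1 higher gene in the double deletion at 0 min and 10 lower ones at 20 min. Of all tested genes, 7.21% had a higher response in the pbf2 deletion in that fit, against 1.5% without the block. For the other counts the shares of all tested genes in that fit are not given. They are thus not read as particular to the RPS genes.

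The A minus B heat shock response turned with unshared probe sets in RPS18 (1.24, and 0.43 with the mean over probe sets). Values near 0 also turned. RPS26A of the double against the pbf2 deletion was -0.012 with spike-in centring. At 0 min, RPS18B of the pbf1 deletion was 0.23 with spike-in centring and 0.0401 with unshared sets, and RPS20 was 0.00916 and 0.25 with hybridization and spike-in centring. RPS10A of the pbf2 deletion was -0.00535 with median centring, -0.0397 with spike-in centring, -0.0145 with the mean over probe sets and -0.0409 with unshared sets. RPS30A and RPS20 of the double deletion were 0.22 and 0.27 with spike-in centring. Without single arrays, the response difference of RPS7B in the pbf1 deletion ranged from -0.28 to 0.0371, and at 0 min RPS20 in the pbf1 deletion from -0.0856 to 0.0111 and RPS10A in the pbf2 deletion from -0.0502 to 0.0779. In the fits with 1 array left out, the other arrays of its group are assumed to vary like those of the other groups.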
